A study of Mus musculus with 20 samples.

Results

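*Gldn*, *Gucy2c*, *Chrna4*, *Cdc42ep5* and *Slc41a1* are 5 genes of 28100 with counts in either of the deposited tables of this mouse liver study. They were selected on measured values: each had a large or very even difference between livers given the PKLR vector and livers given GFP, and *Slc41a1* was higher under both Pklr vectors. The values of that contrast, and both contrasts of *Slc41a1*, are therefore given as a description with no test. The livers of the knockdown experiment were not used to choose the other 4 genes, and there the question was whether a hairpin against *Pklr* moved them.

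Liver RNA was sequenced from 20 male C57BL/6J mice, 5 in each of 4 groups. All mice received an AAV8 vector by vein at 8 weeks of age and then ate the HF/HS diet until 25 weeks of age. The PKLR group received the cDNA of *Pklr*, and its control, the GFP group, received the gene of a fluorescent protein. The shPKLR group received a short hairpin RNA against *Pklr*, and its control, the shLUC group, received a hairpin against firefly luciferase. Expression was driven by the thyroxine binding globulin promoter, which works in hepatocytes, so other liver cells were not the intended site. No group without a vector or on another diet was analysed here. *Pklr* encodes the pyruvate kinase of liver and red blood cells, which carries out the final reaction of glycolysis. AAV8 is a viral vector that reaches hepatocytes efficiently after injection into the blood.

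The 5 genes act in separate processes, and 3 of them are best known outside the liver. Gliomedin, the product of *Gldn*, is made by Schwann cells of peripheral nerve and is a ligand of the adhesion proteins NrCAM and neurofascin at the nodes of Ranvier. *Gucy2c* encodes the guanylate cyclase receptor of the gut epithelium, which makes cyclic GMP when it binds guanylin, uroguanylin or the heat-stable toxin of gut bacteria. *Chrna4* encodes the alpha4 subunit of nicotinic acetylcholine receptors, ligand-gated ion channels that in the brain are mostly built with the beta2 subunit encoded by *Chrnb2*. *Cdc42ep5* encodes an effector that binds the small GTPase Cdc42 and acts on septins and the cytoskeleton. *Slc41a1* encodes a magnesium transporter of the plasma membrane.

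In the GENCODE annotation of GRCm38 all 5 are protein-coding genes on different chromosomes. *Gldn* (ENSMUSG00000046167) lies on the plus strand of chromosome 9 between bases 54286486 and 54341786. *Gucy2c* (ENSMUSG00000042638) lies on the minus strand of chromosome 6 between 136697284 and 136781765. *Chrna4* (ENSMUSG00000027577) lies on the minus strand of chromosome 2 between 181018380 and 181043546. *Cdc42ep5* (ENSMUSG00000063838) lies on the minus strand of chromosome 7 between 4151260 and 4164860. *Slc41a1* (ENSMUSG00000013275) lies on the plus strand of chromosome 1 between 131827493 and 131848865. *Gldn* overlaps *Gldnos*, an antisense gene on the opposite strand that was not analysed here. The strand setting of the counting is not given in the sources used here, so reads of this pair may not have been told apart. *Chrna4* ends 17 bases from *Col20a1*, which is on the opposite strand.

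RefSeq promoter windows (GRCm38.p6, 250 bases before to 50 after the start) matched 4 of the 5 genes and are shown because *Gldn* and *Cdc42ep5* were lower and *Chrna4* and *Slc41a1* higher in PKLR livers. Capitals mark matches, on either strand, to the GC box GGGCGG or the CCAAT box CCAAT. The windows are chr9:54286236-54286535 (plus strand) for *Gldn*, chr2:181039128-181039427 (minus strand) for *Chrna4*, chr7:4164656-4164955 (minus strand) for *Cdc42ep5* and chr1:131827762-131828061 (plus strand) for *Slc41a1*. The starts are those of RefSeq, and only that of *Gldn* is at the end of the gene span given above. The *Chrna4* and *Slc41a1* windows lie wholly inside their gene spans.
Gldn: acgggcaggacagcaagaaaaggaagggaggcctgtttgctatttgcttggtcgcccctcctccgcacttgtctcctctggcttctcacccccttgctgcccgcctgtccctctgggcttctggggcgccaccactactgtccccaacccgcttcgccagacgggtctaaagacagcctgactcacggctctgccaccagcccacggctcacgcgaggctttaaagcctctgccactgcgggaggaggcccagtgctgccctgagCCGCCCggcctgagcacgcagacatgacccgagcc
Chrna4: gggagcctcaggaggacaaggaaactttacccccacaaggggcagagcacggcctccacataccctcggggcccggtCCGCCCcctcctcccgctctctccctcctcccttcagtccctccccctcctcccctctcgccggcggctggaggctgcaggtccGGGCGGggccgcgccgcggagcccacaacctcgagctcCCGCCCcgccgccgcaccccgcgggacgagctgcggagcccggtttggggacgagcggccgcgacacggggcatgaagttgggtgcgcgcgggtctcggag
Cdc42ep5: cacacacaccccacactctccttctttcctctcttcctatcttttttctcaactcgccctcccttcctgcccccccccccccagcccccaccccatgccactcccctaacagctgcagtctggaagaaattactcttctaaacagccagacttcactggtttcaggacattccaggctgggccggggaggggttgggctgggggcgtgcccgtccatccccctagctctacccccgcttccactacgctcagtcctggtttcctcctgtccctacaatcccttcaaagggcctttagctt
Slc41a1: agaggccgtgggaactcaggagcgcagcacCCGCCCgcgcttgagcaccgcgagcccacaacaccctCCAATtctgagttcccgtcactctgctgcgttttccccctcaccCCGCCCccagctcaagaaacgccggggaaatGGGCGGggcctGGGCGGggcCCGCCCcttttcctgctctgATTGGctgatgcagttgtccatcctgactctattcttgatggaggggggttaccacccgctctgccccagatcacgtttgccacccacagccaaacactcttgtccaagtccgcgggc
The *Gldn* window held 1 GC box, 15 to 20 bases after the start, and the *Chrna4* window held 3. The *Slc41a1* window held 5 GC boxes and 2 CCAAT boxes, the CCAAT boxes at -183 to -179 and at -68 to -64. The *Cdc42ep5* window matched neither. None of the 4 windows held the E-box core CACGTG, the forkhead core TGTTTAC or the TATA box TATAAA, searched on both strands. Of 32851 RefSeq windows of the same length, 35.7% held the GC box, 37.4% the CCAAT box, 7.15% the E-box core, 3.65% the forkhead core and 13.6% the TATA box. The windows were 58.7% to 74.3% G and C, against a median of 52.7% over all windows. *Gldn* and *Cdc42ep5*, lower in PKLR livers, shared no match with each other, and *Gucy2c*, also lower, had no window. A match is a string of letters here, not a measured site.

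The library of shPKLR replicate 4 held 167891680 counts, and the other 19 libraries held 29933820 to 45413803. Levels are given as CPM, counts per 1000000 counts after TMM scaling within each table. *Pklr* itself went with the labels: it averaged 771 ± 220 CPM in PKLR livers and 122 ± 35.3 CPM in GFP livers, and 52.9 ± 22.5 CPM in shPKLR livers and 464 ± 112 CPM in shLUC livers (SD, n = 5 each). Its log2 fold change was 2.67 (SE 0.28, adjusted p = 0.0023, edgeR) for PKLR against GFP and -3.13 (SE 0.30, adjusted p = 0.0027, edgeR) for shPKLR against shLUC. The control groups thus differed in *Pklr*, which was 0.262 times as high in GFP livers as in shLUC livers. Hepatocyte markers summed to between 63718 and 119726 CPM over the livers. In bulk tissue, fewer cells of a type and less RNA per cell cannot be told apart.

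*Gldn* was scarce in PKLR livers and readily counted in GFP livers. The PKLR livers had 0.255, 0.122, 0.0844, 0.275 and 0.0744 CPM in replicates 1 to 5, from 2 to 10 counts each, and the GFP livers had 2.45, 3.76, 3.28, 1.59 and 2.51 CPM, from 57 to 143 counts. Every PKLR liver was below every GFP liver, and the lowest GFP liver was 5.79 times the highest PKLR liver. The means were 0.162 ± 0.096 CPM in PKLR livers and 2.72 ± 0.83 CPM in GFP livers (SD, n = 5 each), a log2 fold change of -4.01 (SE 0.36, 95% interval -4.80 to -3.21). By size this was number 2 among the 15842 genes tested in that experiment.

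In the knockdown experiment *Gldn* split the shPKLR livers. They had 0.112, 0.241, 1.28, 0 and 4.54 CPM in replicates 1 to 5, and the 0 counts of replicate 4 allow up to 0.0178 CPM (3 counts, counting error only). The shLUC livers had 0.0337, 0.0306, 0.0308, 0.121 and 0.0211 CPM, from 1 to 4 counts each. Replicates 2, 3 and 5 of shPKLR were above every shLUC liver, replicate 1 was within their range and replicate 4 was below all of them. The mean log2 CPM was 2.28 higher in shPKLR livers, and the exact two-sided permutation test gave p = 0.103, where 252 splits allow no p below 0.00794. Without shPKLR replicate 4 the difference was 3.10 with an exact permutation p = 0.0159, and without shPKLR replicate 5 it was 1.41 with an exact permutation p = 0.183. The gene was below the low count filter of the edgeR fit in this experiment.

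*Gucy2c* followed the same grouping at similar levels. The PKLR livers had 0.229, 0.122, 0.338, 0.122 and 0.298 CPM, from 4 to 12 counts each, and the GFP livers had 2.91, 3.34, 3.47, 1.09 and 1.51 CPM, from 39 to 127 counts. The groups did not overlap, and the lowest GFP liver was 3.22 times the highest PKLR liver. The means were 0.222 ± 0.099 CPM in PKLR livers and 2.46 ± 1.09 CPM in GFP livers (SD, n = 5 each), a log2 fold change of -3.45 (SE 0.41, 95% interval -4.35 to -2.56), number 10 by size. GFP replicates 4 and 5 were the low ones of their group.

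Under the hairpins, shPKLR livers had 0.140, 0.301, 1.51, 0.166 and 1.73 CPM of *Gucy2c* in replicates 1 to 5, and shLUC livers had 0.0673, 0.490, 0.123, 0.454 and 0.169 CPM. Replicates 3 and 5 of shPKLR, both also high in *Gldn*, were above every shLUC liver, and the other 3 were within the shLUC range. The mean log2 CPM was 1.03 higher in shPKLR livers, with an exact two-sided permutation p = 0.246. Without shPKLR replicate 3 or 5 the difference was 0.63 or 0.58. This gene was also below the filter in the knockdown experiment.

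*Chrna4* ran the other way, and among PKLR livers and among GFP livers it had the highest coefficient of variation of the 5 genes. The PKLR livers had 13.1, 37.7, 20.7, 12.8 and 5.99 CPM in replicates 1 to 5, and the GFP livers had 1.37, 4.26, 2.63, 0.893 and 2.90 CPM. The groups did not overlap, and the lowest PKLR liver, replicate 5, was 1.41 times the highest GFP liver, replicate 2. The means were 18.1 ± 12.2 CPM in PKLR livers and 2.41 ± 1.33 CPM in GFP livers (SD, n = 5 each), a log2 fold change of 2.91 (SE 0.53, 95% interval 1.72 to 4.09). That coefficient was 67.4% among PKLR livers and 55.3% among GFP livers, where counting alone gives 5.04% and 12.4%.

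In the knockdown experiment the *Chrna4* values were 12.8, 4.52, 0.855, 13.4 and 0.838 CPM in shPKLR replicates 1 to 5, against 4.11, 12.1, 9.77, 43.0 and 26.9 CPM in shLUC replicates. The shPKLR replicates 3 and 5, the ones high in *Gldn* and *Gucy2c*, were below every shLUC liver, and the other 3 were within the shLUC range. The log2 fold change was -1.54 (SE 0.76, 95% interval -3.19 to 0.11, adjusted p = 0.35, edgeR), with p = 0.135 by exact two-sided permutation. Across the alternatives the adjusted p ran from 0.216 to 0.539. Without shLUC replicate 4, the highest liver, the log2 fold change was -1.01.

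*Cdc42ep5* gave even values in the PKLR livers. The PKLR livers had 2.17, 2.29, 2.03, 2.05 and 1.75 CPM in replicates 1 to 5, and the GFP livers had 11.3, 10.6, 8.33, 9.38 and 6.53 CPM. The groups did not overlap, and the lowest GFP liver was 2.85 times the highest PKLR liver. The means were 2.06 ± 0.20 CPM in PKLR livers and 9.23 ± 1.89 CPM in GFP livers (SD, n = 5 each), a log2 fold change of -2.16 (SE 0.16, 95% interval -2.50 to -1.83). The coefficient of variation among PKLR livers, 9.77%, was below the 12.3% that counting alone gives for 346 counts over the 5 livers.

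With the hairpins, *Cdc42ep5* had 1.56, 1.81, 3.48, 3.40 and 3.73 CPM in shPKLR replicates 1 to 5 and 2.59, 1.87, 2.93, 4.02 and 1.96 CPM in shLUC replicates. The groups overlapped: shPKLR replicates 1 and 2 were below every shLUC liver, and none was above shLUC replicate 4. The log2 fold change was 0.07 (SE 0.29, 95% interval -0.55 to 0.70, adjusted p = 0.91, edgeR), with p = 0.921 by exact two-sided permutation. The interval holds changes of up to 1.63-fold upward. The sign turned when any 1 of 5 libraries was left out, within a range of -0.04 to 0.27.

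*Slc41a1* differed by less, and in the same direction under both vectors. The PKLR livers had 5.23, 7.44, 5.35, 9.41 and 7.70 CPM in replicates 1 to 5, and the GFP livers had 3.49, 5.21, 4.02, 3.96 and 4.16 CPM. The groups met without overlapping, since the lowest PKLR liver was 1.00 times the highest GFP liver. With all 20 libraries scaled together they overlapped, as PKLR replicate 1 (5.02 CPM) was then below GFP replicate 2 (5.08 CPM). The means were 7.03 ± 1.76 CPM in PKLR livers and 4.17 ± 0.63 CPM in GFP livers (SD, n = 5 each), a log2 fold change of 0.75 (SE 0.17, 95% interval 0.37 to 1.13), number 1044 by size.

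In shPKLR livers *Slc41a1* was at 4.97, 7.23, 3.88, 7.86 and 7.11 CPM in replicates 1 to 5, and in shLUC livers at 3.67, 3.71, 3.51, 3.75 and 3.75 CPM. These groups did not overlap either, with the lowest shPKLR liver, replicate 3, at 1.03 times the highest shLUC liver. The log2 fold change was 0.76 (SE 0.19, 95% interval 0.35 to 1.17). The 5 shLUC livers had a coefficient of variation of 2.66%, where counting alone gives 8.93%, and the shPKLR livers had 27.3%. The experiments share no livers, but the gene was picked for being higher in both, so its direction in the second is no separate evidence.

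**Figure D1:**
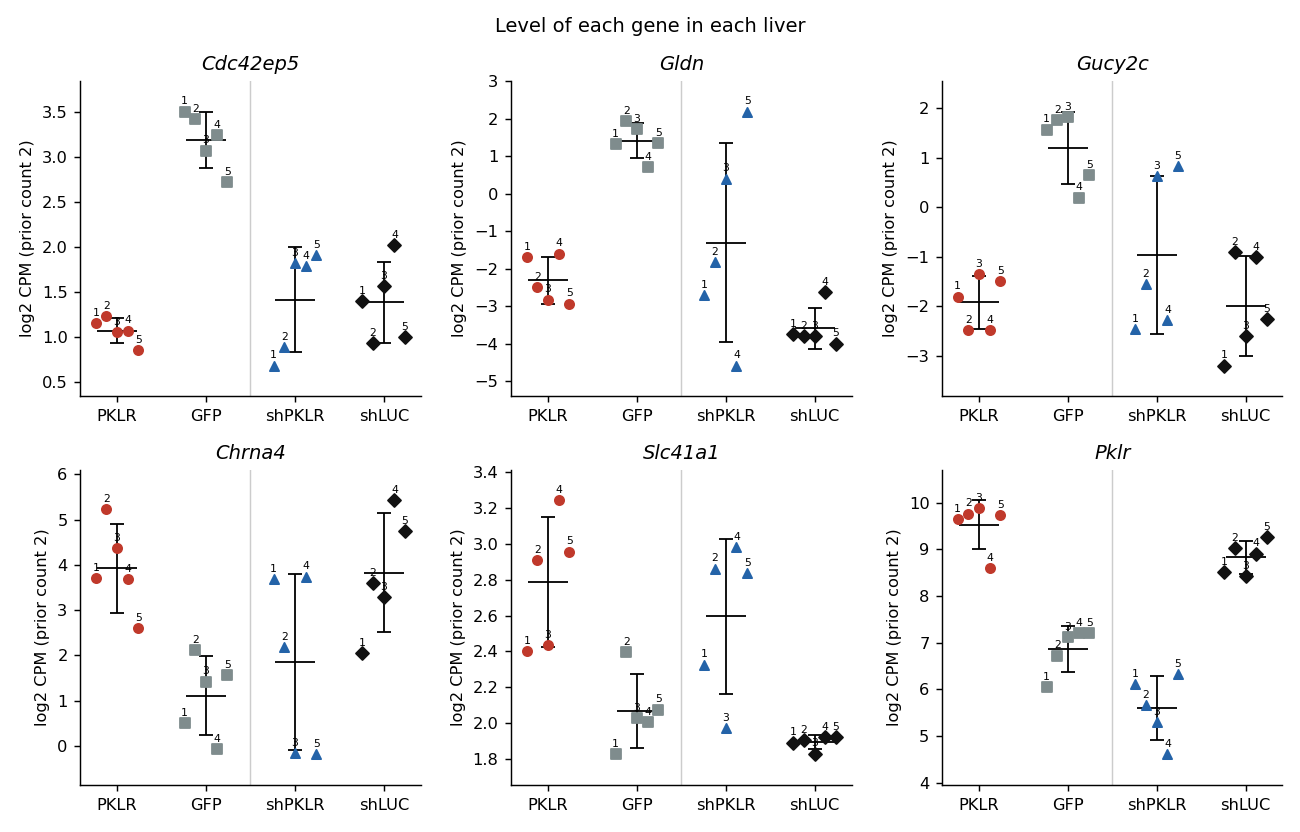
Level of the 5 genes and of *Pklr* in each of the 20 livers, as log2 CPM with a prior count of 2 (y axis, scale differs between panels), by vector group (x axis); numbers are replicates, horizontal bars the mean and whiskers the SD of 5 livers. PKLR and GFP livers do not overlap in any panel, and shPKLR replicates 3 and 5 are the highest shPKLR livers for *Gldn* and *Gucy2c* and the lowest for *Chrna4*.

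With TMM scaling within each table, all 5 genes had non-overlapping PKLR and GFP livers, 3 lower and 2 higher. The choice of members fixed this. Over all 15842 genes tested, livers did not overlap with PKLR lower for 1.93% of genes and with PKLR higher for 3.12%. edgeR called 2.03% of genes in that comparison (322 genes), and 18.8% had an unadjusted p under 0.05. DESeq2 called 1107 genes and edgeR with the replicate block 544. The count of 322 was 128 without GFP replicate 4, 139 without PKLR replicate 3, 172 without PKLR replicate 5, 174 without GFP replicate 2 and 176 without GFP replicate 1. It was 187, 202 and 213 without PKLR replicates 2, 1 and 4.

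In the knockdown experiment 3 of the 5 genes passed the low count filter, and neither *Cdc42ep5* nor *Chrna4*, the ones tested there, was called. edgeR called *Pklr* alone among 15611 genes, or 0.00641%, while 2339 genes (15.0%) had an unadjusted p under 0.05 and DESeq2 called 260. Leaving out shPKLR replicate 2 gave 12 edgeR calls, leaving out shPKLR replicate 1 or 3 gave 6, and leaving out shLUC replicate 1 gave 3. Livers did not overlap for 3.26% of the genes tested, and for 1 of the 5 genes, *Slc41a1*. A p that misses the threshold does not show that the groups had the same level, and the difference between the vectors' effects was not tested. The p-values weigh the difference between groups against the spread between these livers.

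**Figure D2:**
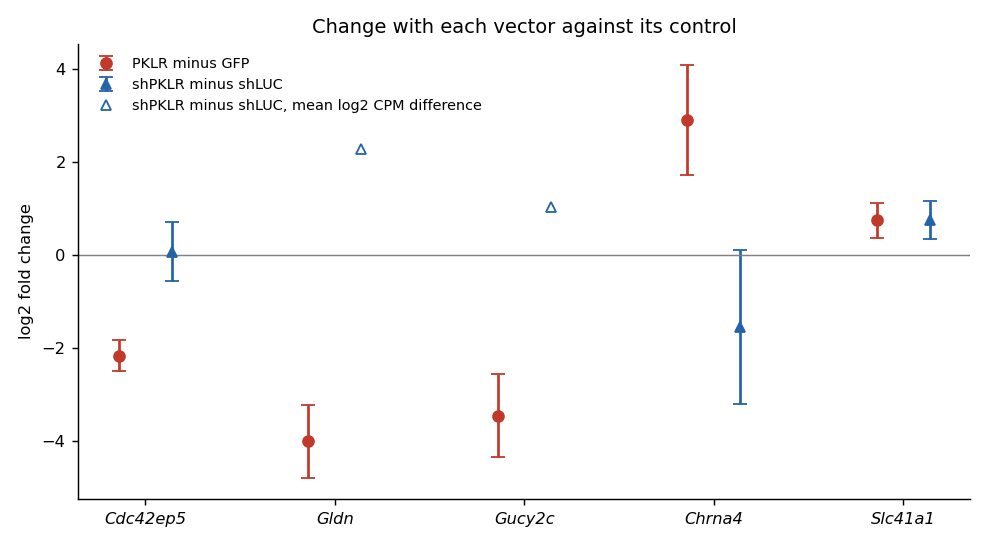
Log2 fold change of each gene (x axis) for PKLR minus GFP (circles) and shPKLR minus shLUC (filled triangles) with 95% intervals, or the difference in mean log2 CPM where the gene was below the filter (open triangles, no interval). The circles run from -4.01 for *Gldn* to 2.91 for *Chrna4*, and the filled triangle of *Cdc42ep5* is at 0.07.

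Set side by side over the 4 groups, the GFP group had the highest mean for *Cdc42ep5*, *Gldn* and *Gucy2c*. *Cdc42ep5* averaged 9.23 CPM in GFP livers and 2.67 CPM in shLUC livers, 3.45 times as high in GFP, and its GFP livers were above every liver of the other 3 groups. *Gucy2c* averaged 2.46 CPM in GFP livers and 0.261 CPM in shLUC livers, 9.45 times as high in GFP. *Gldn* averaged 2.72 CPM in GFP livers and 0.047 CPM in shLUC livers. For these 3 genes the GFP and shLUC livers did not overlap, and the PKLR livers overlapped the shLUC livers. The GFP livers did overlap the shPKLR livers for *Gldn* and *Gucy2c*, since shPKLR replicate 5 had more *Gldn* than any GFP liver and shPKLR replicates 3 and 5 were within the GFP range of *Gucy2c*.

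*Chrna4* averaged 2.41 CPM in GFP livers and 19.2 CPM in shLUC livers, 0.126 times as high in GFP, while the PKLR mean of 18.1 CPM was close to that of shLUC. The control livers overlapped for *Chrna4*, as GFP replicate 2 (4.26 CPM) was above shLUC replicate 1 (4.11 CPM). With all 20 libraries scaled together these 2 livers had 4.16 and 4.22 CPM, and the control groups did not overlap. *Slc41a1* averaged 4.17 CPM in GFP livers and 3.68 CPM in shLUC livers, and those livers overlapped. For comparison, 16008 genes were listed in both tables and passed the low count filter in at least 1 experiment. With all 20 libraries scaled together, the control means differed by over 2-fold for 4.74% of them, and control livers did not overlap for 8.13%. These experiments were tabulated separately and their control vectors differ, so a difference between the controls cannot be told apart from one between the experiments.

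By level the groups ran GFP, shPKLR, shLUC, PKLR for *Cdc42ep5* and for *Gucy2c*, and GFP, shPKLR, PKLR, shLUC for *Gldn*. They ran shLUC, PKLR, shPKLR, GFP for *Chrna4* and PKLR, shPKLR, GFP, shLUC for *Slc41a1*. Of the neighbours in these orders, only GFP and shPKLR for *Cdc42ep5* had livers that did not overlap. Scaling all 20 libraries together left each of these orders in place, but the PKLR and GFP livers of *Slc41a1* then overlapped. *Pklr* itself ran PKLR, shLUC, GFP, shPKLR.

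Per kilobase of merged exons, *Cdc42ep5* was the most abundant of the 5 in GFP livers (7.17 CPM per kb) and *Chrna4* in PKLR livers (3.60 CPM per kb). The levels of *Gldn* and *Gucy2c* in GFP livers were 0.584 and 0.622 CPM per kb, between those of *Chrna4* (0.480) and *Slc41a1* (0.848) there. In PKLR livers they were 0.0348 and 0.0560 CPM per kb. *Pklr* had 238 CPM per kb in PKLR livers and 37.6 CPM per kb in GFP livers.

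Within the groups, the genes were followed liver by liver as deviations of log2 CPM from the mean of the liver's own group. Over the 20 livers *Gldn* and *Gucy2c* deviated together (Pearson r = 0.73, Spearman rho = 0.63), and r was 0.83 in the 10 knockdown livers and 0.14 in the 10 overexpression livers. *Gldn* and *Chrna4* had r = -0.54 over the 20 livers (rho = -0.31), with -0.70 in the knockdown livers and 0.37 in the overexpression livers. Without shPKLR replicates 4 and 5 the r of *Gldn* was 0.64 with *Gucy2c* and -0.22 with *Chrna4*. The correlations of each gene with *Pklr* within groups ran from -0.38 for *Cdc42ep5* to 0.29 for *Gldn*. That of *Gldn* was -0.47 without shPKLR replicates 4 and 5, with -0.50 in the overexpression livers and 0.54 in the knockdown livers. These 15 relations are descriptions: values of 1 liver share a library and its depth.

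Of 10501 genes with at least 2 CPM on average in each table, *Noct* deviated most like *Gucy2c* (r = 0.83, rho = 0.84). For each of the 5 genes the highest r among these 10501 were taken, a choice that by itself gives high values, and none was tested. *Noct* encodes nocturnin, whose transcript is rhythmic in mouse liver. The likeness was between the knockdown livers (r = 0.94) more than between the overexpression livers (r = 0.21). *Noct* averaged 7.26 ± 2.18 CPM in PKLR livers and 35.9 ± 5.47 CPM in GFP livers (SD, n = 5 each), and it fell by 2.30 on the log2 scale (SE 0.20, adjusted p = 0.00071, edgeR). In shPKLR replicates 3 and 5 it reached 53.5 and 33.2 CPM, against 8.80 to 12.6 CPM in the other 3 and 2.09 to 11.5 CPM in shLUC livers. The knockdown log2 fold change was 1.77 (SE 0.54, adjusted p = 0.24, edgeR).

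*Tlcd1*, *Fdps* and *H2-Q7* deviated most like *Chrna4* (r = 0.86, 0.85 and 0.85). *Fdps*, an enzyme of the mevalonate pathway to cholesterol, averaged 15.9 ± 3.62 CPM in PKLR livers and 6.36 ± 2.66 CPM in GFP livers (SD, n = 5 each). It rose by 1.32 on the log2 scale (SE 0.27, adjusted p = 0.038, edgeR), a call kept under 8 of 17 alternatives. Its knockdown log2 fold change was -1.45 (SE 0.38, adjusted p = 0.21, edgeR). The same shPKLR replicates 3 and 5 had its lowest values of that group, 4.50 and 3.61 CPM.

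For *Gldn* the most alike were *Erlin1*, *Fads2*, the delta-6 desaturase, and *Galk2* (r = 0.93, 0.92 and 0.90). Their r was 0.75, 0.73 and 0.71 without shPKLR replicates 4 and 5. For *Cdc42ep5* they were *Faap20*, *Nagk* and *Mapk3* (r = 0.84, 0.82 and 0.79), and for *Slc41a1* they were *Slc25a1*, the mitochondrial citrate carrier, *Srm*, the spermidine synthase, and *Farp1* (r = 0.82, 0.80 and 0.77). After *Noct*, *Det1* and *Acsl3* were closest to *Gucy2c* (r = 0.82 each). Of these 15 genes, edgeR called *Noct* and *Fdps* in PKLR against GFP, where 10 had an unadjusted p under 0.05, and none in the knockdown, where 6 had one.

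**Figure D3:**
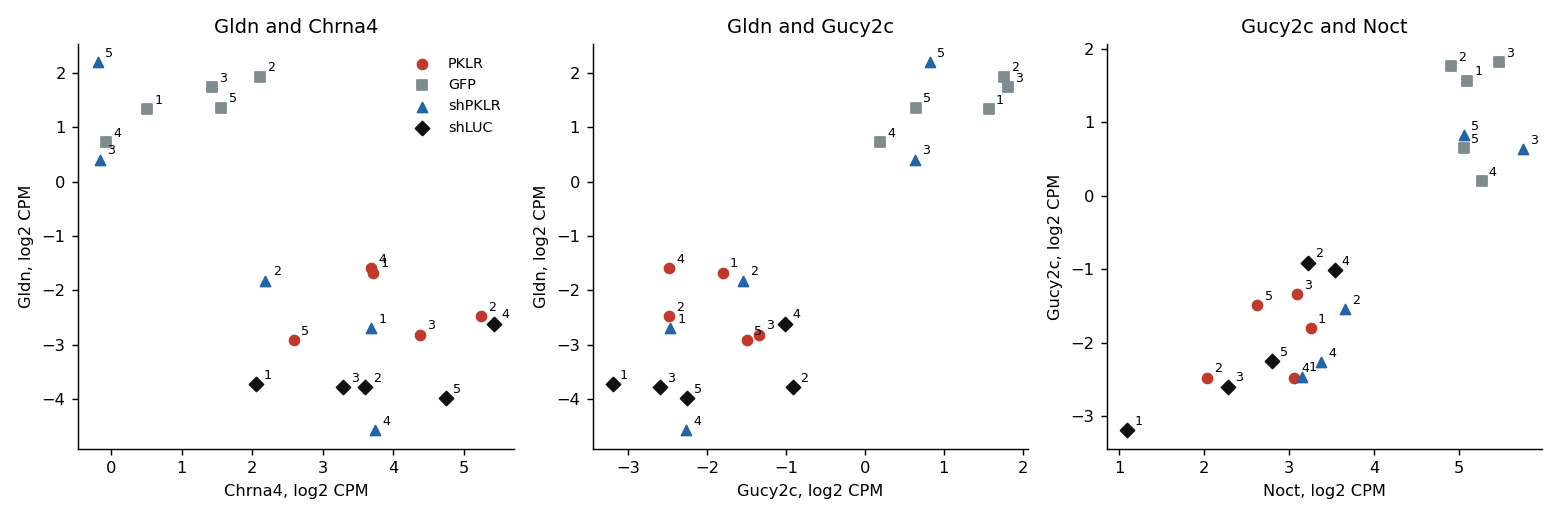
Level of *Gldn* against *Chrna4*, of *Gldn* against *Gucy2c* and of *Gucy2c* against *Noct* in the 20 livers, as log2 CPM with a prior count of 2 on both axes; colour and shape give the vector group, numbers the replicate. The shPKLR replicates 3 and 5 lie among or beside the GFP livers in the 3 panels, and the other shPKLR livers lie with the PKLR and shLUC livers.

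The partners of these genes were read against the shares over all genes, 2.03% called and 18.8% at an unadjusted p under 0.05 in PKLR against GFP, and 0.00641% and 15.0% in the knockdown. Of the 21 other genes of Cdc42 and its effectors, edgeR called none in PKLR against GFP, DESeq2 and limma-voom called none, and 5 had an unadjusted p under 0.05. Their median log2 fold change was -0.03, against 0.01 over all genes. *Cdc42*, the GTPase itself, had 106 ± 9.21 CPM in PKLR livers and 107 ± 8.51 CPM in GFP livers (SD, n = 5 each). The paralogs *Cdc42ep1* to *Cdc42ep4* had log2 fold changes between -0.26 and 0.26. In the knockdown none of the 21 was called by the 3 tools, and 1 had an unadjusted p under 0.05.

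Beside *Gucy2c*, 11 genes of guanylate cyclases and cyclic GMP handling were tested in PKLR against GFP, with a median log2 fold change of -0.04, and edgeR called *Npr2* alone, as higher, while 6 had an unadjusted p under 0.05. *Npr2*, the receptor of C-type natriuretic peptide, averaged 51.5 ± 7.01 CPM in PKLR livers and 29.9 ± 3.24 CPM in GFP livers (SD, n = 5 each). It rose by 0.79 on the log2 scale (SE 0.10, adjusted p = 0.0055, edgeR), with no overlap of livers. In the fit of all 20 libraries its adjusted p was 0.075. In shPKLR livers it had a log2 fold change of 0.44 (SE 0.27, adjusted p = 0.43, edgeR). The soluble cyclase subunits *Gucy1a1* and *Gucy1b1* had log2 fold changes of -0.55 and -0.42 in PKLR livers (adjusted p = 0.088 and 0.17, edgeR), and DESeq2 called *Gucy1a1*. In the knockdown none of 10 was called by the 3 tools or had an unadjusted p under 0.05. The ligand gene *Guca2b* had no more than 2 counts in any liver.

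Beside *Chrna4*, 7 genes of nicotinic receptors were tested in PKLR against GFP, and none was called by the 3 tools or had an unadjusted p under 0.05. Their median log2 fold change was -0.18. Its partner *Chrnb2* averaged 1.66 ± 0.59 CPM in PKLR livers and 1.90 ± 0.50 CPM in GFP livers (SD, n = 5 each), with a log2 fold change of -0.18 (SE 0.27, adjusted p = 0.76, edgeR). Under the hairpins *Chrnb2* averaged 2.37 ± 0.38 CPM in shPKLR livers and 1.93 ± 0.20 CPM in shLUC livers (SD, n = 5 each). *Chrna2*, another alpha subunit, had a log2 fold change of -0.13 in PKLR livers. In the knockdown edgeR called none of the 7 genes, 2 had an unadjusted p under 0.05, and DESeq2 called *Ric3*, a chaperone of these receptors.

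Beside *Gldn*, 7 genes of its partners and of other olfactomedin proteins were tested in PKLR against GFP, with a median log2 fold change of -0.04, and *Olfml1* alone was called by edgeR, as higher, while 3 had an unadjusted p under 0.05. DESeq2 also called *Olfml3*, which averaged 3.69 ± 0.83 CPM in PKLR livers and 8.42 ± 3.58 CPM in GFP livers (SD, n = 5 each), a log2 fold change of -1.19 (adjusted p = 0.065, edgeR). *Olfml1* averaged 14.7 ± 0.95 CPM in PKLR livers and 11.0 ± 1.42 CPM in GFP livers (SD, n = 5 each), an adjusted p of 0.044 (edgeR) that held under 5 of 17 alternatives. *Nfasc*, the gene of neurofascin, had 1.23 ± 0.42 CPM in PKLR livers and 1.26 ± 0.27 CPM in GFP livers (SD, n = 5 each). *Nrcam* had no more than 3 counts in any liver. In the knockdown none of 7 was called by the 3 tools, and 2 had an unadjusted p under 0.05.

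Beside *Slc41a1*, 17 genes of magnesium transport were tested, and none was called by the 3 tools in either experiment. In PKLR against GFP their median log2 fold change was 0.07 and 5 had an unadjusted p under 0.05, and in the knockdown 4 did. Its paralogs *Slc41a2* and *Slc41a3* had log2 fold changes of 0.37 (SE 0.39) and -0.82 (SE 0.29) in PKLR livers and of 0.40 (SE 0.18) and 0.68 (SE 0.36) in shPKLR livers.

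**Figure D4:**
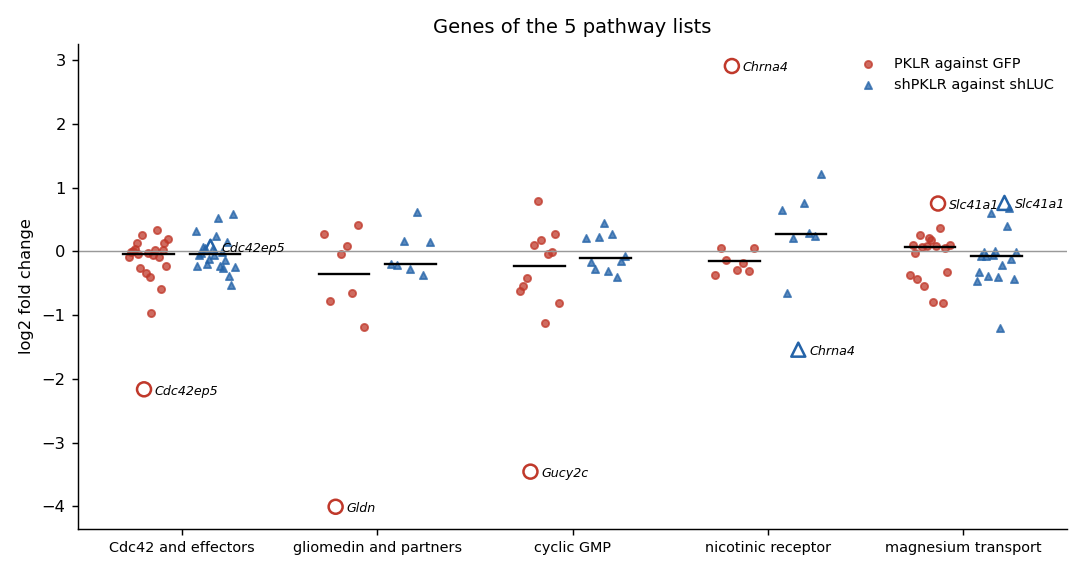
Log2 fold change (y axis) of each tested gene of the 5 pathway lists (x axis) for PKLR against GFP (circles) and shPKLR against shLUC (triangles); large open symbols are the 5 genes described, and black lines are list medians with those genes included. The medians lie between -0.35 and 0.27. The 5 named genes lie at the edge of their lists in PKLR against GFP, the contrast they were picked on.

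The nearest protein-coding neighbours were also read. Of 10 such genes, 8 were tested in PKLR against GFP and 3 were called, where 2.03% of all genes were. *Leng9*, 886 bases from *Cdc42ep5* and on the same strand, fell by 0.60 on the log2 scale (SE 0.12, adjusted p = 0.034, edgeR). It averaged 4.61 ± 0.49 CPM in PKLR livers and 6.96 ± 1.02 CPM in GFP livers (SD, n = 5 each). *Plbd1*, 35356 bases from *Gucy2c*, rose by 0.50 (SE 0.09, adjusted p = 0.018, edgeR). *Tnfaip8l3*, 218098 bases from *Gldn*, rose by 1.81 (SE 0.40, adjusted p = 0.043, edgeR). The calls of *Leng9* and *Tnfaip8l3* held under 11 of 17 and 7 of 16 alternatives. *Col20a1*, which abuts *Chrna4*, averaged 0.970 ± 0.743 CPM in PKLR livers and 0.853 ± 0.156 CPM in GFP livers (SD, n = 5 each), with a log2 fold change of 0.18 (adjusted p = 0.86, edgeR). *Pm20d1* and *Rab29*, on either side of *Slc41a1*, were not called. In the knockdown edgeR called none of the neighbours; the log2 fold change was 0.02 for *Leng9*, -0.22 for *Plbd1*, -0.70 for *Tnfaip8l3*, 0.97 for *Col20a1* and -0.42 for *Pm20d1*, the last 2 with an unadjusted p under 0.05.

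Markers of the cells known for these genes were read beside them. Of the neuron and glia list, *Syt1*, a synaptic vesicle protein, averaged 6.93 CPM in PKLR livers and 6.36 CPM in GFP livers, and *Mbp*, a myelin protein, averaged 0.810 CPM in PKLR livers and 1.09 CPM in GFP livers. *Gfap*, an intermediate filament of glia, averaged 0.270 CPM in PKLR livers and 0.464 CPM in GFP livers, and *Tubb3* averaged 0.0168 CPM and 0.0216 CPM in the same groups. Of this list 4 genes were tested, 2 with a positive and 2 with a negative log2 fold change in PKLR against GFP. edgeR called none of them there (adjusted p = 0.67 for *Syt1*, 0.44 for *Mbp* and 0.21 for *Gfap*), and *Gfap* had an unadjusted p = 0.030. In the knockdown 1 of 4 was positive and 3 negative, with none called. Of the intestinal list, *Vil1* averaged 0.143 CPM in PKLR livers and 0.0903 CPM in GFP livers, and *Cdx2* had no more than 3 counts in a knockdown liver. The 3 intestinal genes counted in the overexpression livers, mostly *Fabp2*, which hepatocytes also express, summed to 87.5 to 131 CPM in PKLR livers and 124 to 160 CPM in GFP livers. *Lgals4*, a galectin of that list, averaged 14.3 ± 5.13 CPM in PKLR livers and 24.9 ± 7.94 CPM in GFP livers (SD, n = 5 each), a log2 fold change of -0.80 (adjusted p = 0.17, unadjusted p = 0.021, edgeR). It lay between 19.05 and 61.9 CPM in shPKLR livers and between 4.53 and 17.2 CPM in shLUC livers, with no overlap and a log2 fold change of 1.35 (adjusted p = 0.22, unadjusted p = 0.0046, edgeR). In PKLR against GFP 2 intestinal genes were tested and both were lower. In the knockdown 1 of 2 was higher and 1 lower, both with an unadjusted p under 0.05, where 15.0% of all genes had one. The directions of *Lgals4* are those of the *Gldn* and *Gucy2c* means, and the part of this marker in them was not tested.

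Markers of other cells were read in the same way. The 8 lymphocyte genes summed to 7.24 to 9.90 CPM in PKLR livers and 10.9 to 16.6 CPM in GFP livers, with no overlap and with 1 of 8, *Igkc*, called lower. The 5 genes of dividing cells summed to 4.50 to 10.6 CPM in PKLR livers and 7.70 to 94.2 CPM in GFP livers, with *Birc5* called lower. The 8 stellate cell genes summed to 134 to 251 CPM and 203 to 424 CPM in the same groups, with none called by edgeR. The 8 macrophage genes summed to 68.7 to 222 CPM in PKLR livers and 76.4 to 336 CPM in GFP livers, with *Gpnmb* called lower and medians of 177 CPM in both. In PKLR against GFP the log2 fold change was negative for 8 of 8 lymphocyte genes and 5 of 5 genes of dividing cells. It was negative for 7 of 8 stellate cell genes and 6 of 8 macrophage genes, and for 7754 of all 15842 genes tested. In these lists 4, 5, 6 and 3 genes had an unadjusted p under 0.05, against 18.8% of all genes. In the knockdown edgeR called no gene of these 4 lists, and the log2 fold change was positive for 8 of 8 macrophage genes, 6 of 6 lymphocyte genes, 5 of 8 stellate cell genes and 4 of 5 genes of dividing cells, with 1, 0, 0 and 1 of them at an unadjusted p under 0.05. None of these lists had a member at 0 in all livers of a group. Other lists were not all lower. In PKLR against GFP the log2 fold change was positive for 4 of 6 liver endothelial genes and 4 of 7 hepatocyte genes. It was negative for 4 of 5 cholangiocyte, 3 of 3 erythroid and 2 of 2 neutrophil genes tested. The endothelial genes summed to 66.6 to 120 CPM in PKLR livers and 61.9 to 113 CPM in GFP livers. edgeR called no gene of these other lists in either experiment. The part of any of these cell types in the differences of the 5 genes was not tested.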

How the data were processed

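Per the labels, libraries were made with a stranded total RNA kit from frozen liver. The authors deposited 1 table of whole-number read counts per gene for each experiment, not normalized. The submitters' processing notes name HISAT2, DESeq2 and the builds GRCm38 and mm10; which program counted the reads, on which annotation and with which strand setting is not given in the sources used here. Columns were matched to samples by name, with 0 left over, and groups came from the labels.

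The 5 genes and the gene lists were chosen with earlier results of these data known. Each experiment was fitted whole with edgeR 4.0.16 (quasi-likelihood, robust, R 4.3.3) after filterByExpr and TMM, with Benjamini-Hochberg adjustment over all genes tested and a threshold of 0.05. The SE is the log2 fold change divided by the square root of F. *Gldn* and *Gucy2c* were below the filter in the knockdown table, so the exact permutation test of their log2 CPM (prior count 2) is their result there. Alternatives were RLE factors, other filters, DESeq2 1.42.0, limma-voom 3.58.1, the replicate number as a block, 1 fit of 20 libraries and each library left out; joint scaling of the levels was added after seeing the data. The fitting code was tested on simulated data.

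Beyond the 5 genes and *Pklr*, genes were named by rule: nearest protein-coding neighbours, the 3 genes most alike within groups (at least 2 CPM, no predicted symbols), called genes of the lists and their partners, ligands or paralogs. Symbols and coordinates came from GENCODE, and promoter windows from RefSeq, both on the build of the files. The summed neuron and glia markers are not reported here.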

Additional observations from a re-analysis of the deposited data

Results flagged for a closer look

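In 3 of 24 sets of 5 livers (5 genes and *Pklr*, in 4 groups), 1 liver lay further from the rest in CPM than Dixon's 95% limit. Chance alone flags about 0.05 of such sets if the values are normally distributed, which was not tested for these CPM values. *Gldn* in shPKLR replicate 5 was 4.54 CPM, with the next liver of that group at 1.28 CPM. *Gldn* in shLUC replicate 4 was 0.121 CPM, from 4 counts where the other shLUC livers had 1 each. *Pklr* in PKLR replicate 4 was 389 CPM, with the next PKLR liver at 800 CPM; the values of that liver for the 5 genes lay within or, for *Gldn* and *Slc41a1*, at the top of the PKLR range.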

How the results depend on the processing

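The differences between PKLR and GFP livers kept their direction for all 5 genes under the 17 alternatives, with log2 fold changes of -4.25 to -3.85 for *Gldn*, -3.68 to -3.30 for *Gucy2c*, 2.45 to 3.22 for *Chrna4*, -2.26 to -2.08 for *Cdc42ep5* and 0.62 to 0.85 for *Slc41a1*. The genes were picked on this contrast, so refits of the same livers are no separate evidence. In the knockdown, *Slc41a1*, picked for being higher there as well, ran from 0.66 to 0.89. *Chrna4* stayed lower and past no threshold (log2 fold change -2.003 to -1.015). *Cdc42ep5* ran from -0.04 to 0.27 with 1 library left out, negative without shPKLR replicate 3 (-0.0060), 4 (-0.014) or 5 (-0.043) or shLUC replicate 2 (-0.032) or 5 (-0.023), with adjusted p between 0.648 and 0.994 over its alternatives. *Gldn* ran from 1.41 to 3.10 with 1 library left out, and passed the threshold only without shPKLR replicate 4 (3.10). With no filter edgeR gave *Gldn* 4.63 (SE 1.73, adjusted p = 0.36) and *Gucy2c* 1.497 (SE 0.80, adjusted p = 0.44), and in the fit of 20 libraries 4.62 (SE 1.20, adjusted p = 0.067) and 1.501 (SE 0.67, adjusted p = 0.20). DESeq2, limma-voom and the 1 CPM filter could give no knockdown value for these 2 genes, which are below those filters.

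PKLR against GFP had 322 calls, 1107 with DESeq2, 544 with the replicate block and 128 to 469 with 1 library left out. The knockdown had 1 call, against 260 with DESeq2, 114 in the fit of 20 libraries, 17 with no filter, 8 with limma-voom, 7 with RLE factors, 3 with the replicate block and 1 to 12 with 1 library left out. The cause of these shifts was not tested. Between livers of the same number, r of the deviations ran from -0.20 to 0.35. The same number was the best match for replicates 1 and 5 of the overexpression experiment and replicate 4 of the knockdown. These values cannot decide whether the numbers pair the livers. With the replicate block the knockdown value of *Chrna4* was -1.92 (adjusted p = 0.33) and the exact permutation p of *Gldn* was 0.188.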
